A study of Mus musculus with 19 samples.

Results

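The tumour necrosis factor (TNF) superfamily genes with numbered symbols were followed in microglia sorted from mouse hippocampus. They were taken as every row of the 2 deposited expression tables whose gene symbol starts with Tnfsf (ligands) or Tnfrsf (receptors) and a number, which gave 32 of 23951 rows, 12 ligands and 20 receptors. RNA was sequenced in 15 libraries, 3 in each of 5 groups, and each table was fitted on its own. All mice carried Cx3cr1CreER+/-, an inducible Cre recombinase under the promoter of a chemokine receptor gene of microglia and other myeloid cells, and received tamoxifen at 50 mg/kg on 5 days. The 3-month table holds PU.1 fl/fl mice, in which Cre removes the floxed Spi1 gene, whose product PU.1 directs myeloid transcription (PU.1 cKO), and controls with the Cre alone, collected 1 week after tamoxifen. The 4.5-month table holds CK-p25 mice with PU.1 fl/fl (CK-p25 PU.1 cKO), CK-p25 mice without it, and CK control littermates. In CK-p25 mice forebrain neurons are induced to express p25, an activator of the kinase Cdk5, and degenerate. Tamoxifen was given at p25 induction, and tissue was taken 6 weeks later. Whether libraries of a group are separate animals is not stated in the labels; a p-value here reflects the spread among libraries, part of which may be technical.

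TNF superfamily ligands are mostly membrane proteins of immune cells that act as trimers, on the cell surface or after release by proteases. Their receptors signal through TRAF adaptors to NF-kB and MAP kinases, and those with a death domain can also start caspase-dependent death. Canonical NF-kB uses Nfkb1 and Rela, while the non-canonical arm, used by CD40, RANK and the BAFF receptor, stabilises the kinase encoded by Map3k14 and processes Nfkb2 to pair with Relb. In brain, microglia are a main source of TNF and carry both TNF receptors, Tnfrsf1a (with a death domain) and Tnfrsf1b (without). Tnfsf13b (BAFF) and Tnfsf13 (APRIL) are best known from B cells and plasma cells, where Tnfrsf13b (TACI), Tnfrsf17 (BCMA) and Tnfrsf13c (the BAFF receptor) bind them.

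RefSeq promoters (GRCm38.p6) matched 24 of the 32 genes, with 28 start sites. Each window of 250 bases before the start was searched on both strands. The motifs were the PU.1 motif GAGGAAGT, the shorter ETS motif GGAAGT that it contains, the ETS-IRF composite (GGAA, any 2 bases, then GAAA) and the NF-kB motif. GGAA alone was not searched. The PU.1 motif was in 1 of the 28 windows, that of the ligand gene Tnfsf18, against 2.44% of 32817 windows of all genes. The ETS motif was in 4 windows (19.7% of all windows), the composite in 0 (2.3%) and the NF-kB motif in 3, those of Tnfrsf25, Tnfrsf8 and Tnfrsf9 (7.25%). A match is a description of these letters and not a binding site, and no match says only that the letters are not in the window. As examples, promoters of 4 of the members called in both comparisons with CK at 4.5 months are shown 5′ to 3′, ending at the base before the start. Tnfsf10 and Tnfrsf23, also called in both, held none of the motifs, and Tnfsf12Tnfsf13, called in both too, had no matched promoter. Among the 4 shown only Tnfrsf13b holds any of the searched motifs, an ETS motif in capitals at 50 bases before the start.
Tnfsf8, ligand, chr4:63861285-63861534, minus strand: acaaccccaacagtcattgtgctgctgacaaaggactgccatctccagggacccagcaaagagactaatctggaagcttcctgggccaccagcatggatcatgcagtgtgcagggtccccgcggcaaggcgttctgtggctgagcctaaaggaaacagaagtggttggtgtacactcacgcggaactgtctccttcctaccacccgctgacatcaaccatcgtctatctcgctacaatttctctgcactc
Tnfrsf17, receptor, chr16:11313559-11313808, plus strand: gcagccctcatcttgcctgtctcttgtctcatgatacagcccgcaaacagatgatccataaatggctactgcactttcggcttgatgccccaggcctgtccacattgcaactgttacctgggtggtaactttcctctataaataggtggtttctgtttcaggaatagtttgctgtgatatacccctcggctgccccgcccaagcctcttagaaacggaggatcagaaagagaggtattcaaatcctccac
Tnfrsf13b, receptor, chr11:61126505-61126754, plus strand: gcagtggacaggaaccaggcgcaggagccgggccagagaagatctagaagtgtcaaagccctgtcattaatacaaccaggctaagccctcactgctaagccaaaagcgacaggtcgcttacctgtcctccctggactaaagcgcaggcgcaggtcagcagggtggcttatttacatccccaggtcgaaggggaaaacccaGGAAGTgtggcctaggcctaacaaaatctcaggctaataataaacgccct
Tnfrsf1b, receptor, chr4:145246871-145247120, minus strand: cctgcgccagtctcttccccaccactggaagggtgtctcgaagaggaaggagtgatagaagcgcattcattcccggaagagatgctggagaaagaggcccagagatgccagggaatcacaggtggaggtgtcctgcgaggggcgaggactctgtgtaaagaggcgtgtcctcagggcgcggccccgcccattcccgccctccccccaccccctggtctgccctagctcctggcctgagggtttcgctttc

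The libraries held between 10140 and 10954 genes at 1 FPKM or more. FPKM values are fragments per kilobase of a transcript, scaled to the mapped fragments of the library. The value of 1 fragment, read from the steps between low values, varied between 0.763 and 1.01 relative to the first library of the 3-month table and between 0.893 and 1.30 relative to the first of the 4.5-month table. The highest, 1.30, was CK-p25 replicate 3, so this library was the shallowest of its table, and it is the only 4.5-month library with another run name in the labels. For the 3-month libraries the labels contradict each other. The descriptions only name table columns, and they tie columns named MIC_CX3CR1 to samples titled PU.1 cKO. Columns named MIC_PU1 are tied to samples titled as controls, so the column names read against the titles. Titles were followed for the groups and descriptions for matching columns, and the groups are named here as labelled, PU.1 cKO or control. Spi1 went against the titles, at 409, 338 and 337 FPKM in labelled PU.1 cKO and 261, 105 and 248 FPKM in labelled control, and the source names point the other way, which would turn each 3-month sign. At 4.5 months Spi1 averaged 180 ± 38.5 FPKM in CK-p25 PU.1 cKO, 252 ± 45.1 FPKM in CK-p25 and 246 ± 14.1 FPKM in CK (SD, n = 3 each). CK-p25 PU.1 cKO lay below CK-p25 by -0.49 ± 0.17 (SE) on the log2 scale, with an adjusted p of 0.745 in limma. The summed level of 7 microglia markers ran from 13564 to 15188 FPKM in CK-p25 PU.1 cKO, 14085 to 15781 FPKM in CK-p25 and 22693 to 24920 FPKM in CK. At 3 months it ran from 24346 to 28131 FPKM in labelled PU.1 cKO and 6745 to 12300 FPKM in labelled control. In such bulk samples fewer cells of a type and less RNA per cell cannot be told apart.

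Microglia of both tables carried high levels of a few receptors and 1 ligand, and little of the rest. At 4.5 months the mean over 9 libraries was highest for Tnfrsf21 (the death domain receptor DR6) at 182 FPKM, Tnfrsf1b at 134 FPKM, Tnfrsf1a at 109 FPKM, Tnfrsf11a (RANK) at 49.1 FPKM and Tnfrsf13b at 23.8 FPKM. Among ligands it was highest for Tnfsf13b at 29.0 FPKM, Tnfsf8 (the CD30 ligand) at 15.1 FPKM and Tnfsf12 (TWEAK) at 9.57 FPKM. The same 5 receptors led the 3-month table over its 6 libraries, with Tnfrsf1b at 146 FPKM and Tnfrsf21 at 135 FPKM, and Tnfsf13b led its ligands at 58.6 FPKM. A test needed a mean of at least 1 FPKM over the table. That left 18 members at 4.5 months (7 ligands, 11 receptors) and 19 at 3 months (8 ligands, 11 receptors). The 5 untested ligands at 4.5 months, Tnfsf4, Tnfsf11, Tnfsf14, Tnfsf15 and Tnfsf18, lay between 0 and 1.93 FPKM in every library. The 9 untested receptors there lay between 0 and 2.06 FPKM, and they include Tnfrsf13c, Tnfrsf4 (OX40), Tnfrsf8 (CD30) and Tnfrsf11b (osteoprotegerin, the soluble decoy of RANK ligand). At 3 months the 4 untested ligands reached at most 0.467 FPKM and the 9 untested receptors at most 1.98 FPKM. Tnfsf11 (RANK ligand) and Tnfsf4 (OX40 ligand) were listed at 0 in all 6 libraries of 3 months, as was Tnfrsf11b.

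**Figure D1:**
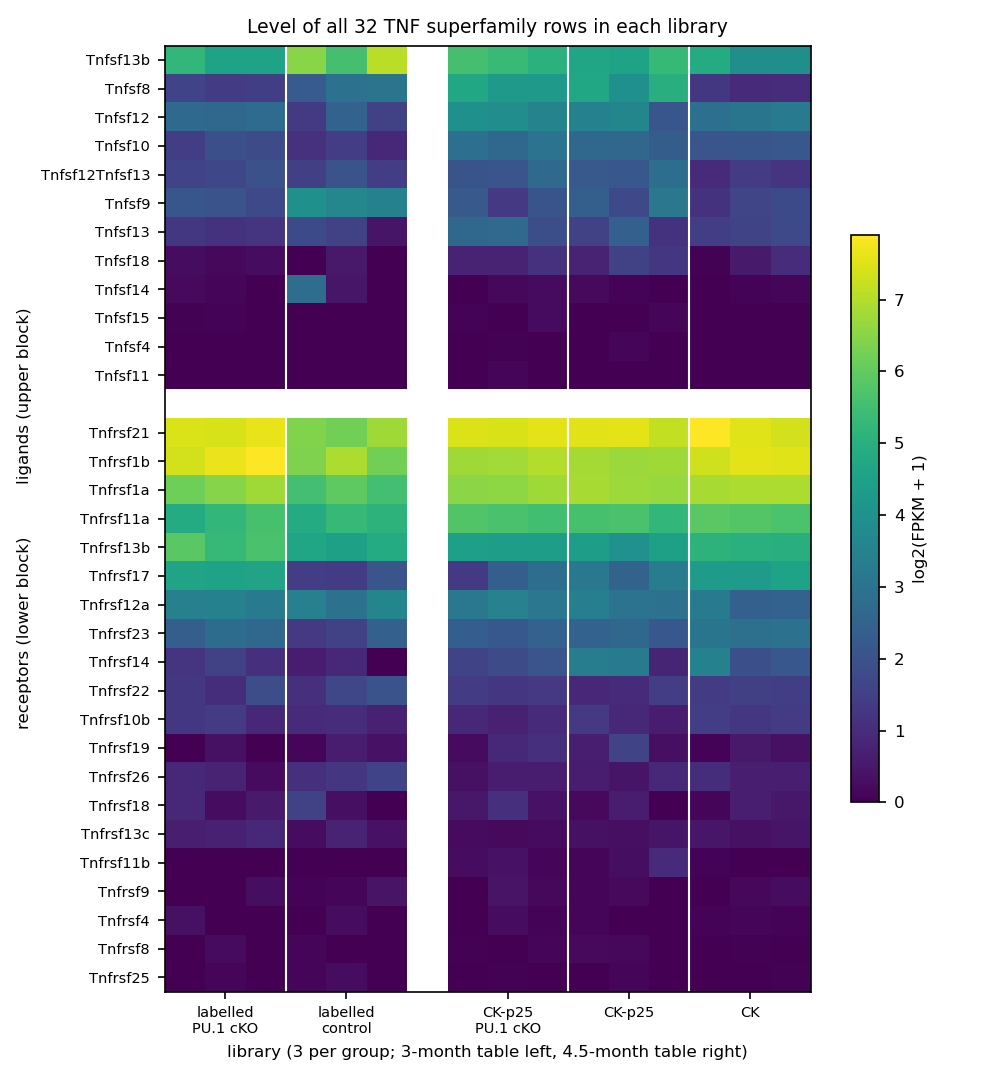
Heat map of log2(FPKM + 1) for all 32 members (rows, ligands in the upper block and receptors in the lower) in the 15 libraries (columns, 3-month table left, 4.5-month table right). The brightest rows are Tnfsf13b among ligands and Tnfrsf21, Tnfrsf1b and Tnfrsf1a among receptors, followed there by Tnfrsf11a and Tnfrsf13b. Tnfsf8 is brighter in the 6 libraries with CK-p25 than in those of CK.

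How microglia of a degenerating hippocampus differ was asked by comparing CK-p25 with CK. In CK-p25, 3 ligands rose and 0 fell, and 0 receptors rose and 4 fell, by limma on log2(FPKM + 1) with Benjamini-Hochberg adjustment over all 10894 genes tested. Of all genes 17.6% were higher and 13.7% lower in this comparison. The risers were Tnfsf8, the read-through row Tnfsf12Tnfsf13 and Tnfsf10 (TRAIL), and the fallers were Tnfrsf17, Tnfrsf13b, Tnfrsf1b and Tnfrsf23. CK-p25 and CK libraries did not overlap for 9 of 18 tested members, against 46.5% of all genes. In CK-p25 PU.1 cKO against the same CK libraries, 4 ligands rose and 5 receptors fell, with 0 calls in the other direction, against 17.8% higher and 13.3% lower of all genes. There 13 of 18 members did not overlap, against 58.5% of all genes. Both comparisons use the CK libraries, so they are not independent. The median difference of the 7 tested ligands was 0.61 in CK-p25 against CK and 0.83 in CK-p25 PU.1 cKO against CK. That of the 11 tested receptors was -0.38 and -0.52 in the same comparisons. Over all genes the medians were -0.0003 and -0.001.

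Differences here are on the log2(FPKM + 1) scale, which understates the change of low genes. The split of calls over all genes moved with the scaling. As deposited, 56.3% of calls were higher in CK-p25 against CK and 57.2% in CK-p25 PU.1 cKO against CK, and after quantile normalization 45.6% and 45.9%. The direction of no called member changed under median centring or quantile normalization. After quantile normalization 7 members in place of 4 were lower in CK-p25 against CK.

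Tnfsf8, the ligand of CD30, had by far the largest difference of the family at 4.5 months. It measured 25.4, 18.4 and 18.3 FPKM in the CK-p25 PU.1 cKO libraries, 25.3, 14.5 and 30.7 FPKM in CK-p25, and 1.44, 0.958 and 1.02 FPKM in CK. Every CK-p25 library, with or without PU.1 fl/fl, stood far above every CK library. The log2 difference was 3.46 ± 0.26 (SE) in CK-p25 against CK (limma adjusted p = 5.84e-05) and 3.34 ± 0.26 in CK-p25 PU.1 cKO against CK (adjusted p = 6.66e-05). Both calls held under every alternative run, among them leaving out each library in turn. Tnfrsf8, its receptor, was barely read: whole fragments recovered from its FPKM numbered 1, 0 and 2 in CK-p25 PU.1 cKO, 4, 3 and 0 in the CK-p25 libraries, and 0, 1 and 0 in CK, too few to compare.

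Tnfsf13b, the cytokine BAFF, measured 46.2, 39.2 and 32.3 FPKM in the CK-p25 PU.1 cKO libraries, 24.7, 23.0 and 38.5 FPKM in CK-p25, and 28.3, 14.4 and 14.3 FPKM in CK. All CK-p25 PU.1 cKO libraries lay above all CK libraries, while those of CK-p25 overlapped both other groups. It rose by 1.06 ± 0.29 in CK-p25 PU.1 cKO against CK (limma adjusted p = 0.0249), and CK-p25 lay 0.61 ± 0.29 above CK (adjusted p = 0.152). The rise lost the threshold on leaving out replicate 1 of CK-p25 PU.1 cKO (0.94, adjusted p = 0.0862), its replicate 2 (1.06, adjusted p = 0.0711), CK replicate 2 (0.91, adjusted p = 0.0888) or CK replicate 3 (0.91, adjusted p = 0.0883). Without CK replicate 1, the highest CK library, CK-p25 against CK passed at 0.91 (adjusted p = 0.0313).

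Tnfsf10, the death ligand TRAIL, was at 6.47, 5.27 and 7.11 FPKM in the CK-p25 PU.1 cKO libraries, 5.18, 5.10 and 4.06 FPKM in CK-p25, and 3.22, 3.38 and 3.41 FPKM in CK. The 3 groups did not overlap, with CK-p25 PU.1 cKO highest and CK lowest. It rose by 0.74 ± 0.13 in CK-p25 PU.1 cKO against CK (limma adjusted p = 0.00314) and by 0.41 ± 0.13 in CK-p25 against CK (adjusted p = 0.0407). The smaller rise missed the threshold without CK-p25 PU.1 cKO replicate 1, CK-p25 replicates 1 or 2, or any CK replicate (0.36 to 0.42, adjusted p = 0.0649 to 0.111), without the filter on low values (adjusted p = 0.0853) and with only the 6 libraries compared (adjusted p = 0.0643). The mouse receptors that bind TRAIL are low here, and none passed as higher. Tnfrsf10b, the death receptor, averaged 0.816 ± 0.167 FPKM in CK-p25 PU.1 cKO, 0.954 ± 0.470 FPKM in CK-p25 and 1.59 ± 0.134 FPKM in CK. Its differences from CK, -0.52 ± 0.21 in CK-p25 PU.1 cKO and -0.43 ± 0.21 in CK-p25, did not pass (limma adjusted p = 0.0945 and 0.148). The difference in CK-p25 PU.1 cKO passed with only the 6 libraries compared (adjusted p = 0.0235), without CK-p25 replicate 3 (0.0359) and without the variance trend (0.0491).

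Tnfrsf23, a mouse decoy receptor for TRAIL, measured 4.11, 3.54 and 4.61 FPKM in the CK-p25 PU.1 cKO libraries, 4.60, 5.35 and 3.40 FPKM in CK-p25, and 7.38, 6.54 and 6.91 FPKM in CK. All 6 libraries with CK-p25 lay below the 3 of CK. It fell by 0.65 on the log2 scale in CK-p25 PU.1 cKO against CK (SE 0.15, limma adjusted p = 0.0120) and by 0.56 in CK-p25 against CK (SE 0.15, adjusted p = 0.0228). In CK-p25 the fall missed the threshold without CK replicate 1 (-0.52, adjusted p = 0.0779), replicate 2 (-0.60, adjusted p = 0.0547) or replicate 3 (-0.56, adjusted p = 0.0674), and with only the 6 libraries compared (adjusted p = 0.0505). Tnfrsf22, the neighbouring decoy receptor, averaged 1.51 ± 0.133 FPKM in CK-p25 PU.1 cKO, 1.14 ± 0.469 FPKM in CK-p25 and 1.75 ± 0.0930 FPKM in CK. Its difference of -0.38 ± 0.18 in CK-p25 against CK passed only without CK-p25 replicate 3 (-0.56, limma adjusted p = 0.0128). Tnfrsf22, Tnfrsf23 and Tnfrsf26 are close relatives, so how fragments were shared among them is uncertain.

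Tnfsf12 (TWEAK), Tnfsf13 (APRIL) and the row Tnfsf12Tnfsf13, the read-through transcript that joins them, are overlapping gene models, and how fragments were divided among the 3 rows is uncertain. Tnfsf12Tnfsf13 measured 3.18, 3.24 and 5.56 FPKM in the CK-p25 PU.1 cKO libraries, 3.62, 3.44 and 6.23 FPKM in CK-p25, and 0.908, 1.64 and 1.26 FPKM in CK. It rose by 1.12 ± 0.25 in CK-p25 PU.1 cKO (limma adjusted p = 0.0113) and by 1.23 ± 0.25 in CK-p25 (adjusted p = 0.00745), each against CK. The other rows of the locus moved less evenly. Tnfsf12 was at 14.8, 13.8 and 10.5 FPKM in the CK-p25 PU.1 cKO libraries, 10.1, 11.3 and 3.37 FPKM in CK-p25, and 6.47, 7.37 and 8.33 FPKM in CK. CK-p25 replicate 3 was low in Tnfsf12 and highest of all in the read-through row, and without it Tnfsf12 passed in CK-p25 against CK (0.49, limma adjusted p = 0.0389; 0.01 with it). Tnfsf12 differed by 0.74 ± 0.36 in CK-p25 PU.1 cKO against CK (limma adjusted p = 0.157). This passed with only the 6 libraries compared (adjusted p = 0.00773) and on leaving CK-p25 replicate 3 out of the common spread (0.00417). Tnfsf13 was at 5.40, 5.55 and 2.72 FPKM in the CK-p25 PU.1 cKO libraries, 1.88, 4.38 and 1.22 FPKM in CK-p25, and 1.69, 2.07 and 2.36 FPKM in CK, and its 0.83 ± 0.34 against CK did not pass either (limma adjusted p = 0.103; 0.0317 with only the 6 libraries compared and 0.0378 without CK-p25 replicate 2). The sum of the 3 rows, a description made after seeing the values, was 23.4, 22.6 and 18.8 FPKM in the CK-p25 PU.1 cKO libraries, 15.6, 19.1 and 10.8 FPKM in CK-p25, and 9.07, 11.1 and 11.95 FPKM in CK. Summed, CK-p25 PU.1 cKO lay above CK in every library, and CK-p25 replicate 3 fell within the CK range.

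Tnfrsf12a (Fn14), the receptor of TWEAK, averaged 8.65 ± 1.42 FPKM in CK-p25 PU.1 cKO, 7.85 ± 1.58 FPKM in CK-p25 and 5.88 ± 2.39 FPKM in CK, with overlapping libraries. CK replicate 1 at 8.64 FPKM stood above the 4.39 and 4.61 FPKM of the other CK libraries. Without it, Tnfrsf12a passed at 0.80 in CK-p25 PU.1 cKO (limma adjusted p = 0.0172) and at 0.67 in CK-p25 (adjusted p = 0.0337), each against CK.

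Tnfsf9, the ligand of the T cell co-receptor Tnfrsf9, varied widely, at 3.57, 1.47 and 3.15 FPKM in the CK-p25 PU.1 cKO libraries, 4.30, 2.38 and 7.77 FPKM in CK-p25, and 1.21, 2.13 and 2.45 FPKM in CK. Its 0.90 ± 0.38 in CK-p25 against CK did not pass (limma adjusted p = 0.103), and without CK-p25 replicate 2 it did (1.24, adjusted p = 0.0338).

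Of the TNF receptors, Tnfrsf1b was lower in CK-p25 microglia. It measured 110, 111 and 125 FPKM in the CK-p25 PU.1 cKO libraries, 113, 104 and 109 FPKM in CK-p25, and 161, 190 and 181 FPKM in CK. No library with CK-p25 reached the lowest CK library. It fell by 0.62 on the log2 scale in CK-p25 PU.1 cKO against CK (SE 0.09, limma adjusted p = 0.00163) and by 0.70 in CK-p25 against CK (SE 0.09, adjusted p = 0.000925), under every alternative run. Tnfrsf1a, the death domain receptor, measured 92.1, 94.0 and 109 FPKM in the CK-p25 PU.1 cKO libraries, 116, 106 and 102 FPKM in CK-p25, and 117, 121 and 121 FPKM in CK. All libraries with CK-p25 lay below those of CK by a small margin. Its -0.28 ± 0.09 in CK-p25 PU.1 cKO against CK passed narrowly (limma adjusted p = 0.0426), and its -0.14 ± 0.09 in CK-p25 did not (adjusted p = 0.255). The narrow call ended on leaving out CK-p25 PU.1 cKO replicate 1 or 2, CK-p25 replicate 2, or any CK replicate (-0.30 to -0.24, adjusted p = 0.0529 to 0.137), and without the variance trend (0.0566). After quantile normalization CK-p25 against CK passed as well (-0.39, adjusted p = 0.0101). The microglia marker sums, given above, were also lower in both CK-p25 groups than in CK, and their part in these falls was not tested.

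Of the receptors of BAFF and APRIL, both that were tested were lower with CK-p25. Tnfrsf17 (BCMA) measured 1.53, 4.29 and 6.25 FPKM in the CK-p25 PU.1 cKO libraries, 8.13, 4.70 and 9.14 FPKM in CK-p25, and 19.6, 19.6 and 22.9 FPKM in CK. All 6 libraries with CK-p25 lay far below the 3 of CK, and the lowest was CK-p25 PU.1 cKO replicate 1 with 18 recovered fragments. It fell by 2.24 on the log2 scale in CK-p25 PU.1 cKO against CK (SE 0.37, limma adjusted p = 0.00264) and by 1.42 in CK-p25 against CK (SE 0.37, adjusted p = 0.0207). The fall in CK-p25 lost the threshold without CK-p25 replicate 2 (-1.17, adjusted p = 0.0593) or any CK replicate (-1.46 to -1.35, adjusted p = 0.0551 to 0.0684). Tnfrsf13b (TACI) measured 20.8, 20.3 and 20.6 FPKM in the CK-p25 PU.1 cKO libraries, 20.0, 14.9 and 21.7 FPKM in CK-p25, and 33.8, 31.2 and 30.9 FPKM in CK. It fell by 0.61 in CK-p25 PU.1 cKO (SE 0.13, limma adjusted p = 0.00765) and by 0.74 in CK-p25 (SE 0.13, adjusted p = 0.00309), each against CK, with no overlap and under every alternative run. Tnfrsf13c, the BAFF receptor, was untested, with 5 to 14 recovered fragments in a 4.5-month library.

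Since these receptors are known from B cells, markers of that lineage are given beside them. Pax5, a defining B cell factor, was listed at 0 in all 15 libraries, and Ms4a1, a B cell surface protein, reached at most 0.472 FPKM and the plasma cell marker Sdc1 0.839 FPKM. Nearly all of the 6-gene B and plasma cell sum came from Cd79b, a B cell receptor subunit. Cd79b measured 3.12, 3.89 and 21.8 FPKM in the CK-p25 PU.1 cKO libraries, 20.6, 15.4 and 19.3 FPKM in CK-p25, and 31.9, 26.2 and 28.6 FPKM in CK. The 2 lowest Cd79b libraries were also the 2 lowest for Tnfrsf17. The sum of 9 T and NK cell markers was uneven, at 5.86 to 45.1 FPKM in CK-p25 PU.1 cKO, 3.10 to 13.9 FPKM in CK-p25 and 0.494 to 8.12 FPKM in CK. That of 5 border macrophage markers ran from 74.0 to 321 FPKM in CK-p25 PU.1 cKO, 72.5 to 118 FPKM in CK-p25 and 5.48 to 260 FPKM in CK. That of 5 astrocyte markers ran from 36.0 to 200 FPKM in CK-p25 PU.1 cKO, 48.4 to 331 FPKM in CK-p25 and 15.5 to 34.9 FPKM in CK. Only Gfap of them passed in CK-p25 against CK, at means of 87.4 and 2.74 FPKM (limma adjusted p = 0.00829). Libraries of these groups overlapped for Aldoc, Aqp4, Gja1 and Slc1a2. The part of these cells in the ligand differences was not tested.

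**Figure D2:**
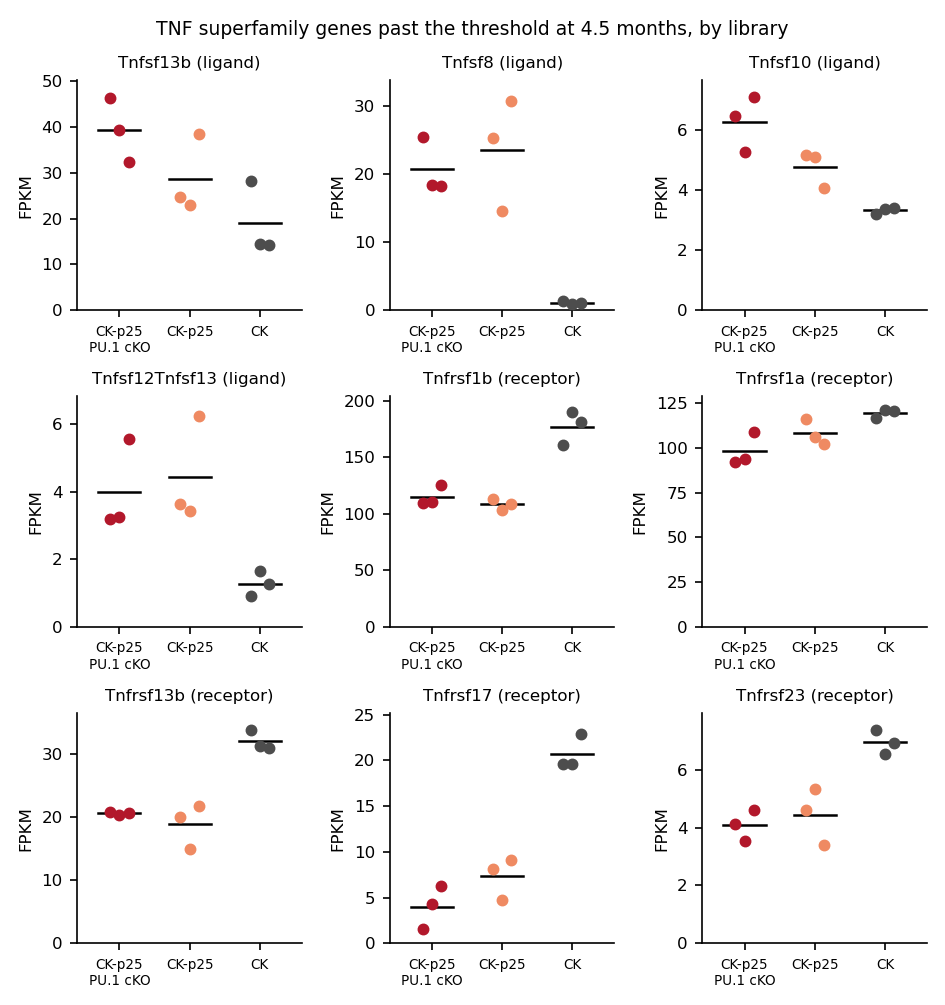
FPKM (y axes from 0) of the 9 members called in a 4.5-month comparison, 1 point per library and a line at the mean of 3, for CK-p25 PU.1 cKO, CK-p25 and CK. Tnfsf8 stood at 14.5 to 30.7 FPKM in all libraries with CK-p25 and at 0.958 to 1.44 FPKM in CK, while Tnfrsf17, Tnfrsf13b, Tnfrsf1b and Tnfrsf23 lay lower in both CK-p25 groups than in CK.

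Of the receptors with high levels and no call at 4.5 months, Tnfrsf21 averaged 179 ± 9.70 FPKM in CK-p25 PU.1 cKO, 173 ± 26.1 FPKM in CK-p25 and 195 ± 38.5 FPKM in CK (SD, n = 3 each). Its libraries overlapped in all comparisons, and the 95% intervals of the difference from CK ran from -0.47 to 0.25 in CK-p25 PU.1 cKO and from -0.53 to 0.20 in CK-p25. Quantile normalization brought both past the threshold, at -0.47 (limma adjusted p = 0.0476) and -0.55 (adjusted p = 0.0272). Tnfrsf11a, the receptor RANK that also controls osteoclasts, averaged 48.9 ± 3.85 FPKM in CK-p25 PU.1 cKO, 44.2 ± 6.89 FPKM in CK-p25 and 54.2 ± 4.24 FPKM in CK. Its -0.30 ± 0.13 in CK-p25 against CK did not pass (limma adjusted p = 0.112), though it did after quantile normalization (-0.46, adjusted p = 0.0330). Tnfrsf14 (HVEM), the receptor of LIGHT, was the least even member, at 2.099, 2.55 and 3.24 FPKM in the CK-p25 PU.1 cKO libraries, 8.93, 8.30 and 0.778 FPKM in CK-p25, and 10.0, 2.81 and 3.43 FPKM in CK. CK-p25 replicate 3 held 8 recovered fragments of it, and the other CK-p25 libraries over 100 each. Its differences had 95% intervals wider than 3 log2 units, from -1.60 to 1.47 in CK-p25 against CK.

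CK-p25 PU.1 cKO against CK-p25 asks what the loss of PU.1 changes in the degenerating hippocampus. In limma 0 of 18 members passed in either direction, as did 0% higher and 0% lower of all 10894 genes. At an unadjusted p under 0.05 there were 1 member, Tnfsf10, and 671 genes, and after quantile normalization 0 members and 1 gene passed the adjusted threshold. Tnfsf10 was also the 1 member whose groups did not overlap, against 9.38% of all genes. It lay 0.33 ± 0.13 higher in CK-p25 PU.1 cKO (95% interval 0.04 to 0.62, limma adjusted p = 0.745). The estimates for Tnfsf12 and Tnfsf13 were 0.72 ± 0.36 and 0.73 ± 0.34, and for Tnfsf13b 0.46 ± 0.29, and each interval included 0. Tnfsf8 differed by -0.13 with an interval of -0.72 to 0.46, and Tnfrsf17 by -0.81 with an interval of -1.66 to 0.04. Among abundant receptors Tnfrsf1b differed by 0.08 (-0.13 to 0.30), Tnfrsf13b by 0.13 (-0.16 to 0.43) and Tnfrsf1a by -0.14 (-0.34 to 0.07). A p that misses the threshold does not show that the groups are alike, and Spi1 itself did not pass in this comparison.

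**Figure D3:**
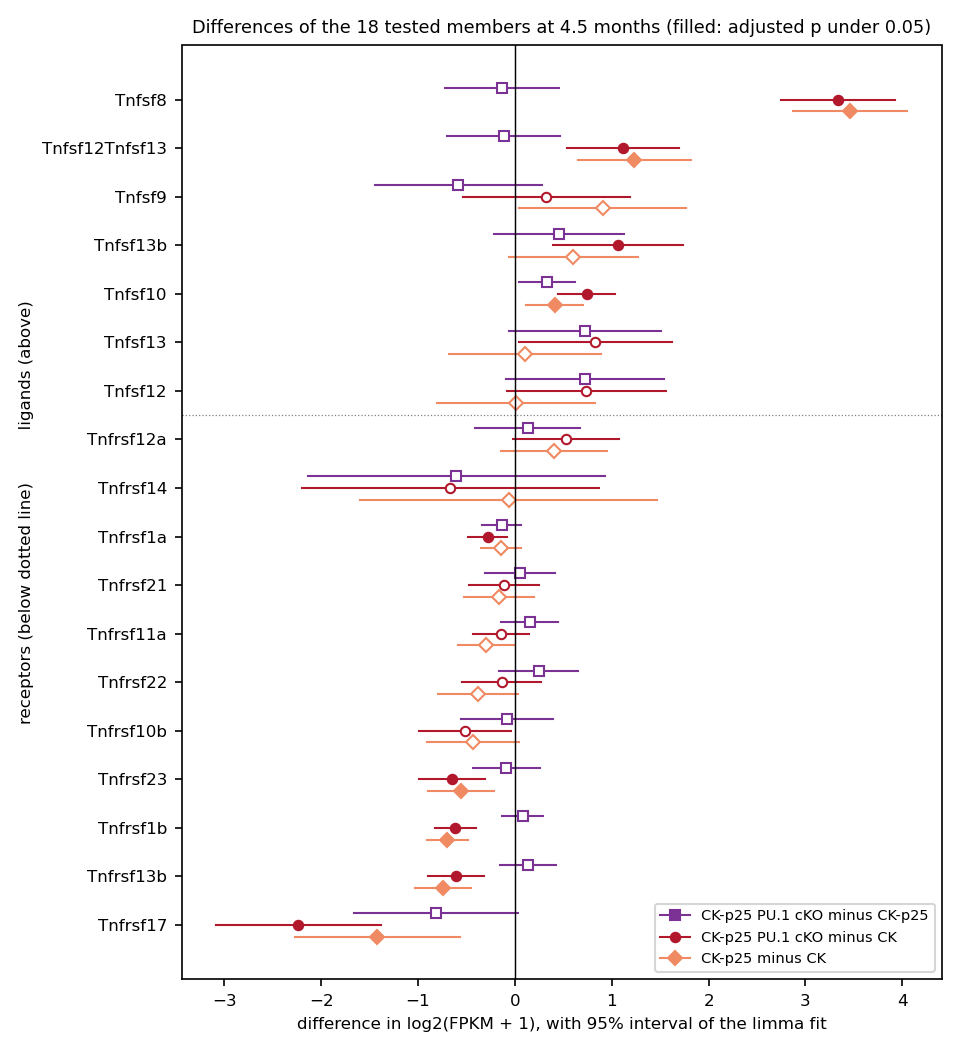
Difference in log2(FPKM + 1) of the 18 tested members (rows, ligands above receptors) for CK-p25 PU.1 cKO minus CK-p25 (squares), CK-p25 PU.1 cKO minus CK (circles) and CK-p25 minus CK (diamonds), with 95% intervals of the limma fit. Filled symbols passed an adjusted p of 0.05; they lie right of 0 for ligands and left of 0 for receptors, and no square is filled.

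The 3-month comparison set labelled PU.1 cKO against labelled control, and its directions hold only if the titles are right, which Spi1 goes against. In labelled PU.1 cKO, 5 receptors were higher and 0 lower, and 0 ligands were higher and 3 lower, against 12.4% higher and 17.8% lower of 10845 genes. The groups did not overlap for 11 of 19 members, against 48.8% of all genes. The median difference was 0.81 over the 11 tested receptors, -0.53 over the 8 tested ligands and -0.03 over all genes. The ligand median rested on Tnfsf14, which passed the filter on low values through 1 library, and was -0.051 over the other 7, a value computed after seeing the data. The share of higher calls over all genes was 41.1%; median centring made it 51.0% and quantile normalization 53.0%, and no called member changed direction. The summed border macrophage markers ran from 204 to 271 FPKM in labelled PU.1 cKO and 375 to 1267 FPKM in labelled control. Those of 5 endothelial markers ran from 17.2 to 20.1 FPKM in labelled PU.1 cKO and 5.91 to 15.7 FPKM in labelled control. Most of that sum was Pecam1, at means of 16.5 and 6.47 FPKM. Kdr averaged 1.38 and 0.834 FPKM, and Cldn5 went the other way at 0.470 and 1.81 FPKM, both with overlapping libraries. In each group 3 of the 5 genes stayed under 1 FPKM in all libraries. Like the microglia marker sums given above, the border macrophage and endothelial sums did not overlap between the groups. Those of 4 monocyte and 4 neutrophil markers overlapped, at 7.07 to 39.0 and 35.3 to 219 FPKM in labelled PU.1 cKO. In labelled control they ran from 38.7 to 948 FPKM (median 73.4) and from 65.8 to 9378 FPKM (median 90.7). The part of all these sums in the results was not tested.

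Tnfrsf17 had the largest difference of the family at 3 months. It measured 23.3, 22.8 and 23.7 FPKM in labelled PU.1 cKO against 1.72, 1.59 and 3.25 FPKM in labelled control, where 9, 10 and 19 fragments were recovered. The libraries of a group lay close together and the groups far apart, with a difference of 2.97 ± 0.23 (limma adjusted p = 0.000291). Cd79b split the same way, at 66.7, 49.4 and 54.6 FPKM in labelled PU.1 cKO and 16.2, 12.03 and 17.3 FPKM in labelled control. Tnfrsf13b measured 58.5, 38.6 and 49.2 FPKM in labelled PU.1 cKO and 23.9, 21.4 and 28.3 FPKM in labelled control, and was higher by 0.95 ± 0.21 (limma adjusted p = 0.0138). It missed the threshold without labelled PU.1 cKO replicate 1 (0.82, adjusted p = 0.0504) or replicate 3 (0.94, adjusted p = 0.0573). Their ligand Tnfsf13b went the other way. It was at 36.7, 23.0 and 23.1 FPKM in labelled PU.1 cKO and 88.8, 46.1 and 134 FPKM in labelled control, lower by -1.57 ± 0.39 (limma adjusted p = 0.0221). That call was lost without labelled PU.1 cKO replicate 2 (-1.46, adjusted p = 0.0821), its replicate 3 (-1.46, adjusted p = 0.0795) or labelled control replicate 1 (-1.51, adjusted p = 0.0643).

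Both TNF receptors and Tnfrsf21 were higher in the libraries labelled PU.1 cKO. Tnfrsf1b measured 163, 201 and 238 FPKM in labelled PU.1 cKO and 81.1, 120 and 72.9 FPKM in labelled control, a difference of 1.14 ± 0.25 (limma adjusted p = 0.0135). Tnfrsf1a measured 71.1, 86.7 and 110 FPKM in labelled PU.1 cKO and 45.2, 60.0 and 45.3 FPKM in labelled control, a difference of 0.81 ± 0.22 (adjusted p = 0.0296). Tnfrsf21 measured 173, 170 and 199 FPKM in labelled PU.1 cKO and 84.5, 74.0 and 109 FPKM in labelled control, a difference of 1.03 ± 0.20 (adjusted p = 0.00883). None of the 3 overlapped between the groups, and only Tnfrsf21 of them passed under every alternative run. Tnfrsf1b missed the threshold without labelled PU.1 cKO replicate 2 (1.13, limma adjusted p = 0.0581) or replicate 3 (1.01, adjusted p = 0.0608). Tnfrsf1a missed it without labelled PU.1 cKO replicate 2 or 3 or labelled control replicate 1 or 3 (0.65 to 0.82, limma adjusted p = 0.0699 to 0.111).

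Tnfsf9 measured 3.33, 3.10 and 2.36 FPKM in labelled PU.1 cKO and 14.5, 11.6 and 10.0 FPKM in labelled control, lower by -1.72 ± 0.21 (limma adjusted p = 0.00162). Tnfsf8 measured 2, 1.63 and 1.76 FPKM in labelled PU.1 cKO and 3.86, 6.68 and 7.24 FPKM in labelled control, lower by -1.27 ± 0.26 (adjusted p = 0.0107). Neither ligand overlapped between the groups, and both calls held under every alternative in which the gene was tested. Tnfsf12 was at 5.57, 5.43 and 5.73 FPKM in labelled PU.1 cKO and 1.56, 4.60 and 1.90 FPKM in labelled control, without overlap. Its 0.92 ± 0.31 did not pass (limma adjusted p = 0.0603), but median centring (1.02, adjusted p = 0.0452), quantile normalization (0.96, adjusted p = 0.0323) or leaving out labelled control replicate 2 (1.27, adjusted p = 0.00379) made it pass. Tnfrsf23 averaged 5.13 ± 0.874 FPKM in labelled PU.1 cKO and 2.60 ± 1.57 FPKM in labelled control. It passed only without labelled control replicate 3 (1.17, limma adjusted p = 0.0174). Tnfrsf11a averaged 37.3 ± 9.58 FPKM in labelled PU.1 cKO and 33.1 ± 4.97 FPKM in labelled control. Tnfrsf12a averaged 9.38 ± 0.927 FPKM in labelled PU.1 cKO and 9.35 ± 2.27 FPKM in labelled control. These receptors overlapped between the groups, with 95% intervals of -0.39 to 0.68 for Tnfrsf11a and -0.48 to 0.53 for Tnfrsf12a. Tnfsf10 and Tnfrsf26, an orphan receptor, did not overlap and did not pass (0.60 ± 0.27 and -0.69 ± 0.30, limma adjusted p = 0.126 and 0.122).

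**Figure D4:**
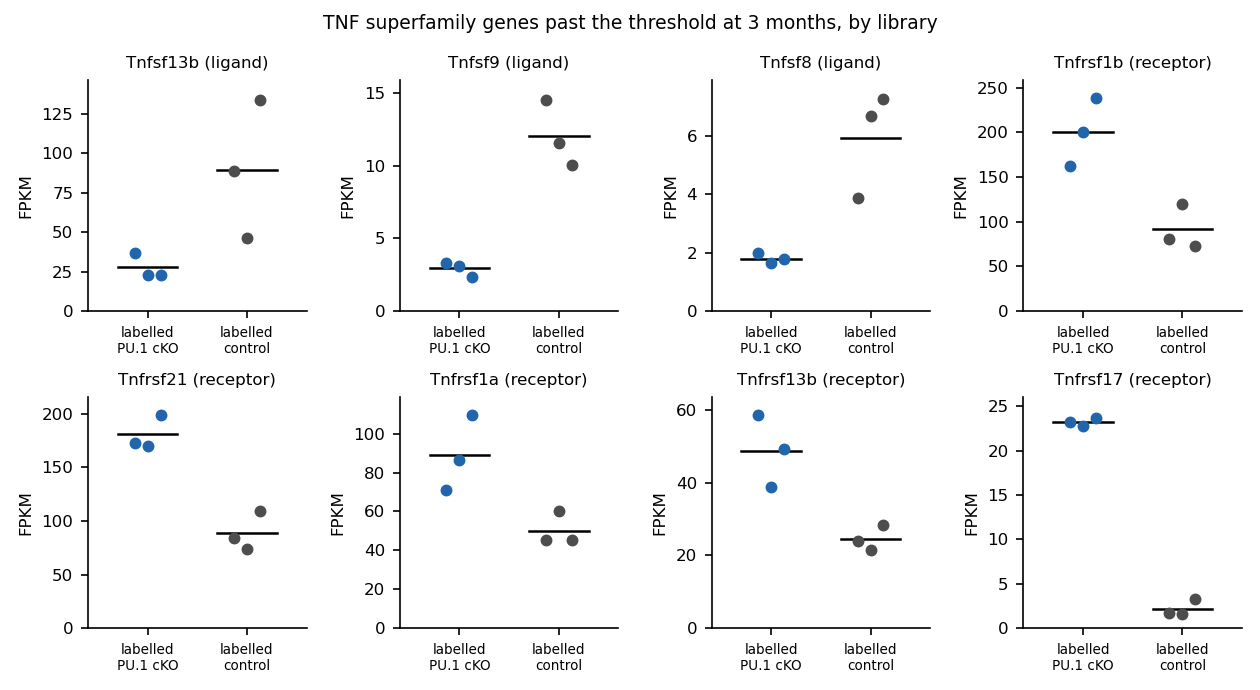
FPKM (y axes from 0) of the 8 members called at 3 months, 1 point per library and a line at the mean of 3, for labelled PU.1 cKO and labelled control. The 3 ligands lie lower and the 5 receptors higher in labelled PU.1 cKO, with no overlap in any panel.

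Family members with other symbols, listed with earlier results of these data known, moved in part alongside. Of 7 further ligands 2 were tested in each table, Tnf and Ltb, and of 8 further receptors 4. At 4.5 months the co-stimulatory receptor Cd40 measured 11.3, 8.91 and 9.35 FPKM in the CK-p25 PU.1 cKO libraries, 6.75, 5.01 and 13.5 FPKM in CK-p25, and 0.917, 1.28 and 1.23 FPKM in CK. The death receptor Fas measured 6.32, 4.50 and 4.08 FPKM in the CK-p25 PU.1 cKO libraries, 2.99, 3.10 and 4.29 FPKM in CK-p25, and 1.04, 1.12 and 1.24 FPKM in CK. Both were thus higher in all libraries with CK-p25 than in any of CK, unlike the numbered receptors that passed. Cd40 rose by 2.34 ± 0.29 in CK-p25 PU.1 cKO (limma adjusted p = 0.000631) and 2.04 ± 0.29 in CK-p25 (adjusted p = 0.00123), each against CK. Fas rose by 1.46 ± 0.17 in CK-p25 PU.1 cKO (limma adjusted p = 0.000548) and 1.052 ± 0.174 in CK-p25 (adjusted p = 0.00269). Relt, a receptor first found in lymphoid tissue, fell by 1.11 in CK-p25 PU.1 cKO (SE 0.23, limma adjusted p = 0.00704) and by 0.83 in CK-p25 (SE 0.23, adjusted p = 0.0253). The Relt fall in CK-p25 missed the threshold without CK-p25 replicate 1 (-0.68) or 2 (-0.80) or CK replicate 2 (-0.81) or 3 (-0.70), at adjusted p = 0.0598 to 0.0924.

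Ltb, the membrane anchor of lymphotoxin, measured 5.74, 11.99 and 8.80 FPKM in the CK-p25 PU.1 cKO libraries, 1.96, 3.15 and 1.73 FPKM in CK-p25, and 11.7, 5.74 and 8.77 FPKM in CK. It fell by 1.55 in CK-p25 against CK (SE 0.30, limma adjusted p = 0.00608). CK-p25 PU.1 cKO lay 1.56 above CK-p25 without overlap, at a limma adjusted p of 0.745, and differed from CK by 0.01 ± 0.30. Tnf averaged 9.21 ± 1.41 FPKM in CK-p25 PU.1 cKO, 11.01 ± 5.86 FPKM in CK-p25 and 5.83 ± 1.23 FPKM in CK, and did not pass (0.59 ± 0.30 and 0.72 ± 0.30 against CK, limma adjusted p = 0.181 and 0.104). At 3 months Tnf measured 7.25, 6.27 and 5.55 FPKM in labelled PU.1 cKO and 61.5, 54.1 and 40.0 FPKM in labelled control, lower by -2.83 ± 0.21 (limma adjusted p = 0.000225). Cd40 and Fas were also lower there, by -2.67 ± 0.39 and -2.62 ± 0.44 (limma adjusted p = 0.00336 and 0.00534), whereas the 5 numbered receptors that passed were higher.

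Of 36 genes of signalling downstream of the receptors, 33 were tested at 4.5 months. In CK-p25 PU.1 cKO against CK 8 rose and 4 fell, where 17.8% of all genes were higher and 13.3% lower. In CK-p25 against CK 9 rose and 6 fell, where 17.6% of all genes were higher and 13.7% lower, and in CK-p25 PU.1 cKO against CK-p25 0 passed. The median difference of the list was -0.01, 0.08 and -0.01 in these comparisons. Of the non-canonical genes, Nfkb2 and Relb rose and Map3k14 did not. Nfkb2 averaged 20.9 ± 2.16 FPKM in CK-p25 PU.1 cKO, 21.1 ± 1.03 FPKM in CK-p25 and 8.65 ± 0.513 FPKM in CK, and Relb 30.9 ± 3.00 FPKM in CK-p25 PU.1 cKO, 30.6 ± 5.07 FPKM in CK-p25 and 12.8 ± 0.432 FPKM in CK. The canonical subunit gene Nfkb1 went the other way, at 18.4 ± 1.02 FPKM in CK-p25 PU.1 cKO, 18.6 ± 2.98 FPKM in CK-p25 and 37.7 ± 1.16 FPKM in CK. In CK-p25 against CK the differences were 1.197 ± 0.094 for Nfkb2 (limma adjusted p = 7.24e-05), 1.18 ± 0.13 for Relb (adjusted p = 0.000316) and -0.99 ± 0.11 for Nfkb1 (adjusted p = 0.000435). Tank, a TRAF-binding regulator, rose by 1.28 ± 0.19 and Tab2, an adaptor of the kinase TAK1, fell by 1.01 (SE 0.12) in CK-p25 against CK (limma adjusted p = 0.00157 and 0.000618). At 3 months 34 were tested, and 10 were higher and 3 lower in labelled PU.1 cKO, where 12.4% of all genes were higher and 17.8% lower, with the same doubt about the titles. The largest were Mlkl, the effector of necroptosis, at -2.40 ± 0.32, Nfkb1 at 1.62 ± 0.23, the deubiquitinase gene Tnfaip3 at 1.48 ± 0.21, the caspase inhibitor gene Cflar at 1.25 ± 0.19 and Traf5 at 1.18 ± 0.16 (limma adjusted p = 0.00240, 0.00281, 0.00306, 0.00386 and 0.00251).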

How the data were processed

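RNA of FACS-purified CD11b+ CD45 microglia was made into cDNA with SMART-Seq v4 and into libraries with Nextera XT, per the labels' protocols; these kits do not mark strand. The authors deposited 2 tables of FPKM values, made with TopHat, Bowtie, Cufflinks 2.0.0 and the mm9 build, per the submitters' processing notes. Chromatin immunoprecipitation samples are not analysed here. Count models do not suit FPKM and were left out. limma 3.58.1 (R 4.3.3) compared groups on log2(FPKM + 1), with a pseudocount of 1, a mean-variance trend, genes at a mean of at least 1 FPKM over the table, Benjamini-Hochberg adjustment over all genes tested and a two-sided threshold of 0.05. The 9 libraries of the 4.5-month table shared 1 spread. The fit was tested on simulated data. Differences are the group named first minus the other. Columns were matched to samples by the description in the labels.

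Members and lists were chosen with earlier results of these data known. Every member past the threshold in at least 1 comparison is described with library values, then the 5 receptors and 3 ligands with the highest mean among the rest. For 15 of the 32 members FPKM values were whole multiples, within 0.1, of a step per gene and library, which gave fragments. Alternatives were another pseudocount, filter and scaling, a replicate block, no variance trend, only the compared libraries, and each library left out in turn.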

Additional observations from a re-analysis of the deposited data

How the results depend on the processing

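Calls of members were recomputed under 14 alternatives at 3 months and 18 at 4.5 months. No called member reversed. Leaving out 1 library gave 2 to 6 higher members at 3 months (5 with all libraries), 2 to 3 lower (3), 2 to 4 higher (3) and 2 to 5 lower (4) in CK-p25 against CK, and 3 to 5 higher (4) and 4 to 6 lower (5) in CK-p25 PU.1 cKO against CK. The 3-month count was 3 without labelled PU.1 cKO replicate 2 and 2 without its replicate 3, and the lower count in CK-p25 against CK was 2 without any CK replicate. A filter at 5 FPKM left 1 higher in CK-p25 against CK and 2 in CK-p25 PU.1 cKO against CK, since fewer members were tested. Quantile normalization gave 7 lower in CK-p25 against CK; the cause was not tested.

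Deviations from the group mean correlated at -0.05 to 0.17 at 3 months and -0.02 to 0.13 at 4.5 months between same-numbered libraries. Libraries with different numbers gave -0.26 to 0.12 and -0.22 to 0.15. With 3 libraries in a group, these values cannot settle whether the numbers pair the samples. With the replicate block 5 members were higher and 3 lower at 3 months, 2 higher and 5 lower in CK-p25 against CK, 4 higher and 4 lower in CK-p25 PU.1 cKO against CK, and 0 in CK-p25 PU.1 cKO against CK-p25. With it Tnfsf10 in CK-p25 against CK (adjusted p = 0.0755 in limma) and Tnfrsf1a in CK-p25 PU.1 cKO against CK (0.0733) no longer passed, and Tnfrsf11a in CK-p25 against CK did (-0.30, adjusted p = 0.0448). Not every library correlated best with its own number.

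Differences that changed sign were all uncalled. At 3 months Tnfsf13 was 0.072 with a pseudocount of 0.1, 0.045 after median centring, 0.048 after quantile normalization and -0.45 to 0.20 without 1 library. The ranges without 1 library were -0.16 to 0.17 for Tnfrsf12a, -0.037 to 0.33 for Tnfrsf11a and -0.016 to 0.28 for Tnfsf12Tnfsf13. In CK-p25 against CK Tnfsf12 was -0.010 with a pseudocount of 0.1 and -0.0086 after median centring, Tnfrsf14 0.017 and Spi1 -0.39 after quantile normalization. Without 1 library Tnfsf12 was -0.26 to 0.49, Tnfsf13 -0.26 to 0.38, Tnfrsf14 -0.49 to 0.75 and Spi1 -0.10 to 0.16. In CK-p25 PU.1 cKO against CK-p25 the ranges were -0.24 to 0.10 for Tnfrsf10b, -0.016 to 0.24 for Tnfrsf13b, -0.23 to 0.031 for Tnfrsf23, -0.075 to 0.13 for Tnfrsf21, -0.33 to 0.11 for Tnfsf12Tnfsf13 and -0.43 to 0.087 for Tnfsf8, and in CK-p25 PU.1 cKO against CK -0.22 to 0.041 for Tnfrsf21. Below the mean of 1 FPKM, 13 of 32 members at 3 months and 14 of 32 at 4.5 months were not tested, and Tnfrsf8 held at most 4 recovered fragments in a library.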

Other observations

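Tnfsf14 (LIGHT), the ligand of Tnfrsf14, was nearly absent except in 1 library. It held 86 recovered fragments (6.02 FPKM) in labelled control replicate 1, 7 and 0 in the other libraries labelled control, and 2, 1 and 0 in labelled PU.1 cKO. The same library held 4831 FPKM of S100a8 and 3471 FPKM of S100a9, neutrophil genes that were at most 99.6 FPKM in the other 3-month libraries. Tnfsf14 passed the filter on low values through this library, and its difference was -1.001 ± 0.694 (limma adjusted p = 0.3003). The part of neutrophil RNA in its level was not tested.

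Tnfsf18 (GITR ligand), the member whose promoter window held the PU.1 motif, had 25, 27 and 47 recovered fragments in CK-p25 PU.1 cKO, 26, 69 and 38 in the CK-p25 libraries, and 1, 18 and 36 in CK, and was not tested. Tnfrsf11b (osteoprotegerin) had 10, 16 and 6 fragments in CK-p25 PU.1 cKO, 6, 11 and 36 in the CK-p25 libraries, and 3, 1 and 0 in CK, and 0 in all libraries of 3 months. The 3-month libraries were shallower. Relative to the first of them, the value of 1 fragment was 0.763 to 1.01 at 3 months and 0.364 to 0.530 at 4.5 months. Tnfsf15 had 21 fragments in CK-p25 PU.1 cKO replicate 3 and 0 to 7 in each other library of 4.5 months.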
